A study of Mus musculus with 6 samples.

Results

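The class III phosphatidylinositol 3-kinase genes of mouse liver were followed here as a set of 9 named genes: Atg14, Becn1, Pik3c3, Pik3r4, Uvrag, Rubcn, Nrbf2, Mtmr14 and Pik3c2a. They were taken by symbol from 56350 gene IDs in the deposited count table, and all 9 had a row. Of these, 8 had enough reads to be tested among 16051 tested genes. Nrbf2 did not.

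The series profiled polyA RNA of whole liver tissue in 3 wild-type samples (WT) and 3 samples with a hepatocyte-specific knockout of Atg14 (HepKO). The comparison asks how the liver transcriptome differs when hepatocytes, the main cell of the liver, carry the Atg14 knockout. The sources used here give no Cre driver, deleted exons, background strain, age, sex or diet. The labels do not say whether the 3 samples of a group are separate animals, so p-values measure only the spread between these samples, which may be technical.

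The class III lipid kinase Vps34 (gene Pik3c3) makes the signalling lipid phosphatidylinositol 3-phosphate (PI3P) on internal membranes. It works with the scaffold kinase Vps15 (Pik3r4) and Beclin 1 (Becn1) in a pair of assemblies that share these 3 subunits. With Atg14 the kinase is placed at sites of autophagosome formation, where the membrane that engulfs cell contents is built, and with Uvrag it acts on endosomes and in endocytic sorting. Hepatocytes use autophagy to turn over organelles, protein and stored lipid.

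Total counts ranged from 33145684 to 48951937 per library. Scaling by the trimmed mean of M-values (TMM), which assumes that most genes do not differ, gave factors of 0.824 to 0.86 in WT and 1.19 to 1.21 in HepKO. The median log2 fold change (HepKO over WT) of all tested genes was therefore 0.01 with TMM and 0.52 with library totals alone, and every fold change below is relative to its scaling. Levels are CPM, read counts brought to a common library size, with TMM scaling unless stated. Of 6 hepatocyte markers, 5 fell in HepKO (the exception was Serpina1e, and Hnf4a was at 0.16 and not called with library totals), and their summed level was 83820 to 106900 CPM in WT and 36000 to 43150 in HepKO. All 5 tested macrophage markers (Adgre1, Cd68, Lyz2, Itgam and Ccr2) rose, from list sums of 48.7 to 97.1 to sums of 175 to 285 CPM. Trem2 of this list was not tested, with 0 reads in WT and 4, 0 and 0 in HepKO. Among other leukocyte markers, Cd3g of 3 T cell markers rose (list sums of 0.574 to 2.26 CPM in WT and 3.37 to 5.08 in HepKO). Both tested neutrophil markers rose (0.703 to 1.70 and 2.67 to 10.5), as did 2 of 4 Kupffer cell markers (124 to 232 and 282 to 538). The neutrophil marker Ly6g was not tested, with 0 reads in WT and 0, 0 and 6 in HepKO. None of 3 B cell markers passed the test. Of 5 cholangiocyte markers Spp1 and Sox9 rose, while Krt19, Krt7 and Epcam did not pass, and Krt19 and Krt7 were lower in HepKO replicate 3 than in any WT library. Of 5 endothelial markers Cdh5 rose (0.74, FDR 0.0117), and none of 5 stellate cell markers passed the test. With library totals Kdr, Stab2, Pecam1, Lrat, Reln, Dcn and Colec11 of these lists were called higher too. Of 3 erythroid markers Alas2 (−2.23, FDR 0.0235) and Hba-a1 (−0.47, FDR 0.0323) fell, but Hba-a1 was at 0.04 and not called with library totals. The whole-liver libraries held RNA of many cell types, so fewer cells of a type and less RNA per cell cannot be told apart.

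Of the 8 tested members, 4 fell in HepKO (Atg14, Uvrag, Pik3c2a and Rubcn), none rose and 4 did not pass the test (edgeR quasi-likelihood test, Benjamini-Hochberg adjusted p, FDR, under 0.05). Among all tested genes 38.2% were called by the same rule, made up of 18.8% that fell and 19.4% that rose. The members' median log2 fold change was −0.34, beside 0.01 for all tested genes. With library totals 1 member fell (Atg14) and 2 rose (Becn1 and Pik3c3), against 5.76% and 46.3% of all tested genes (52.0% called in all), and the members' median was 0.17 beside 0.52. Among the 8, Atg14 alone was called under both scalings. It is the gene knocked out by design, so its fall is no result about the set. The falls of Uvrag, Pik3c2a and Rubcn were not called with library totals. The hepatocyte markers were lower in the same libraries, and their part in the members' falls was not tested.

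The promoters of the members are described here as sequence only. The RefSeq promoter table (GRCm38.p6; 250 bases before to 50 after each annotated start) held 7 of the 9 members, in 8 windows. They were searched for CACGTG, a palindrome that reads the same on both strands and forms the core of the element bound by TFEB, a transcription factor known for control of autophagy and lysosome genes. It was found in windows of 3 members and in 7.15% of all 32851 windows of this length. The 30 bases around each match follow, 5′ to 3′ on the gene's strand, with the match in capitals.
Atg14, chr14:47568418-47568447, minus strand: aaaacaaaatccCACGTGactggccctgag
Rubcn, chr16:32868437-32868466, minus strand: cgcctagcacatCACGTGtacccaggttag
Nrbf2, chr10:67285472-67285501, minus strand: gacccggctcatCACGTGacagccgccgcc
The match began 1 base before the annotated start in Atg14, 88 bases before the start in Rubcn and 208 bases before it in Nrbf2. Rubcn has a second annotated start, nearer the 5′ end of the gene, whose window held no match. The Atg14 window ended at 47568684, inside the gene as annotated in GENCODE M21, which runs to 47570649. The windows of Pik3r4, Uvrag, Mtmr14 and Pik3c2a held none. Whether these letters bear on any fold change was not tested.

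Atg14 (ENSMUSG00000037526.7, minus strand of chromosome 14, 47540893 to 47570649, mm10) encodes the subunit that defines the autophagy complex. It had 620, 796 and 719 reads in the WT libraries and 329, 379 and 313 in the HepKO libraries. Scaled, these were 20.9, 22.2 and 21.05 CPM in WT and 5.67, 8.45 and 7.95 CPM in HepKO. Every HepKO library lay below every WT library, and HepKO replicate 1 was the lowest. Atg14 fell by 1.54 on the log2 scale (SE 0.16, 95% interval −1.92 to −1.17, FDR 0.00029 in edgeR), a level 2.91-fold lower that left 34.3% of the WT level. With library totals the log2 fold change was −1.03 (FDR 0.0014), or 48.9% of WT. The counts cover all exons of the gene, so reads from exons outside the deleted part and from cells other than hepatocytes are included, and their shares were not measured.

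**Figure D1:**
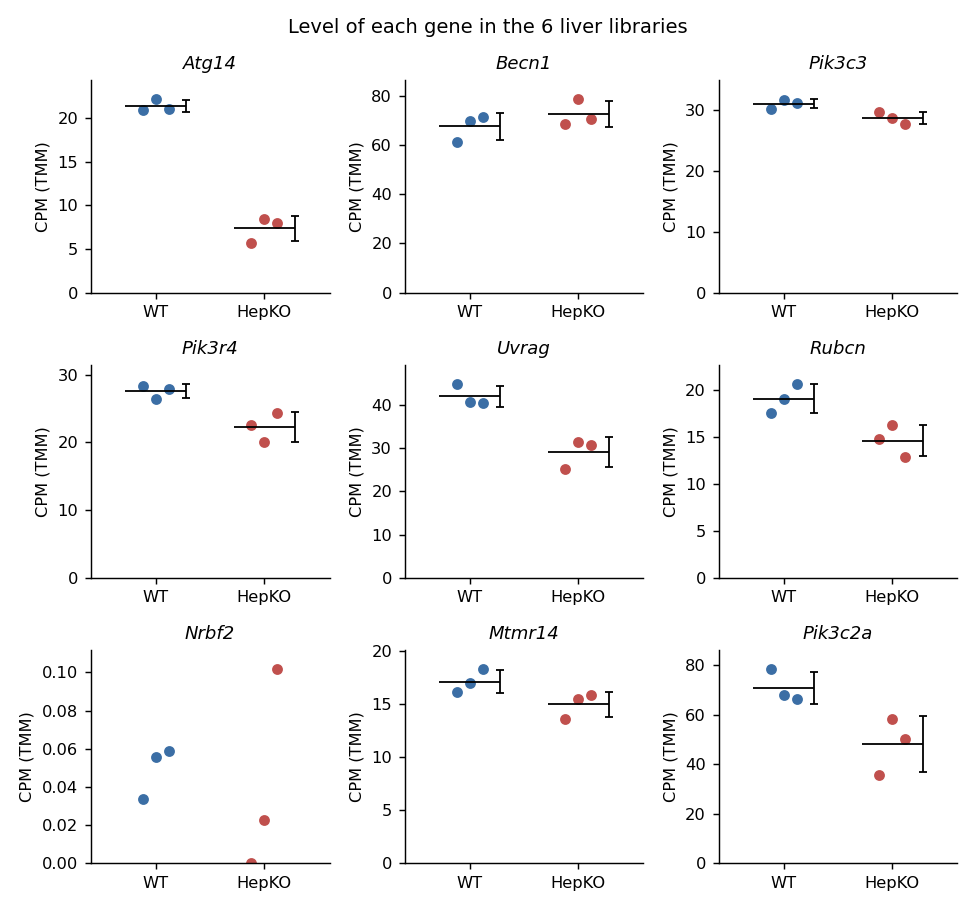
Level of the 9 genes in each library, in TMM-scaled CPM on axes that start at 0 and differ between panels; points are libraries, horizontal lines are means of 3 and bars are ± 1 SD, drawn only for the 8 tested genes. The HepKO libraries of Atg14 sit at 5.67 to 8.45 CPM against 20.9 to 22.2 in WT, and Becn1 is the tested gene whose groups overlap.

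The 3 shared subunits did not pass the test under TMM. Pik3c3, the catalytic subunit Vps34 (plus strand of chromosome 18, 30272747 to 30348126), was at 30.2, 31.8 and 31.2 CPM in WT and 29.7, 28.8 and 27.8 in HepKO. The HepKO libraries were all below the WT libraries, by a narrow margin. Its log2 fold change was −0.11 ± 0.09 (SE; 95% interval −0.31 to 0.09, FDR 0.361). With library totals it was 0.40 and Pik3c3 rose (FDR 0.0068), a smaller value than the 0.52 of the median gene under that scaling.

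Becn1 encodes Beclin 1, the scaffold to which Atg14 and Uvrag bind (minus strand of chromosome 11, 101285952 to 101302286). It was at 61.3, 69.8 and 71.4 CPM in WT and 68.6, 78.6 and 70.4 in HepKO, with overlapping groups. Its log2 fold change was 0.10 ± 0.10 (95% interval −0.13 to 0.33, FDR 0.453), and with library totals it rose by 0.61 (FDR 0.0017), close to the median gene. Of all 50-base words in the Becn1 transcripts, 36.8% are also found, on the opposite strand, in transcripts of other genes, chiefly Cntd1. No source used here states the strand setting of the counting, so reads of the overlapping genes could not be told apart.

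Pik3r4, the scaffold kinase Vps15 (plus strand of chromosome 9, 105642978 to 105687657), was at 28.4, 26.4 and 27.9 CPM in WT and 22.6, 20 and 24.3 in HepKO. The HepKO values lay below all WT values. Its log2 fold change of −0.31 ± 0.11 (95% interval −0.55 to −0.06) just missed the threshold (FDR 0.0514) and was called when HepKO replicate 3 was left out (−0.38, FDR 0.0478). With library totals it was 0.21 (FDR 0.127).

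The subunit of the endosomal complex was lower too, by less than Atg14. Uvrag (ENSMUSG00000035354.9, minus strand of chromosome 7, 98885021 to 99141141) had 1325, 1459 and 1380 reads in WT and 1460, 1409 and 1210 in HepKO. Scaled by TMM these were 44.8, 40.6 and 40.4 CPM in WT and 25.1, 31.4 and 30.7 in HepKO, with no overlap and HepKO replicate 1 again the lowest. Uvrag fell by 0.53 on the log2 scale (SE 0.11, 95% interval −0.78 to −0.27, FDR 0.0068), to 69.4% of WT. The fall rested on the scaling: with library totals the levels were 37.1, 34.9 and 33.3 CPM in WT and 29.8, 37.8 and 36.5 in HepKO, which overlapped, and the log2 fold change was −0.02 (FDR 0.915). Of the 50-base words of Uvrag, 17.4% occur on the opposite strand in other genes, including Gm45187. This share was 12.6% for Pik3c2a (including Gm44777), 4.46% for Atg14 (Gm49004) and 2.0% for Rubcn (Fyttd1).

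Rubcn encodes Rubicon, which binds the Uvrag complex and is known as a brake on autophagy and endosome maturation (minus strand of chromosome 16, 32821703 to 32877766). It was at 17.5, 19.1 and 20.6 CPM in WT and 14.8, 16.2 and 12.9 in HepKO, without overlap. Its log2 fold change of −0.38 ± 0.13 (95% interval −0.68 to −0.09) passed the threshold narrowly (FDR 0.0442), while with library totals it was 0.13 (FDR 0.441). The call was lost with median-of-ratios factors (FDR 0.0533), with DESeq2 (0.0559), with a filter of 1 CPM (0.0505) and on leaving out WT replicate 1 (0.0512), WT replicate 2 (0.138), WT replicate 3 (0.183), HepKO replicate 1 (0.0768) or HepKO replicate 3 (0.128).

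**Figure D2:**
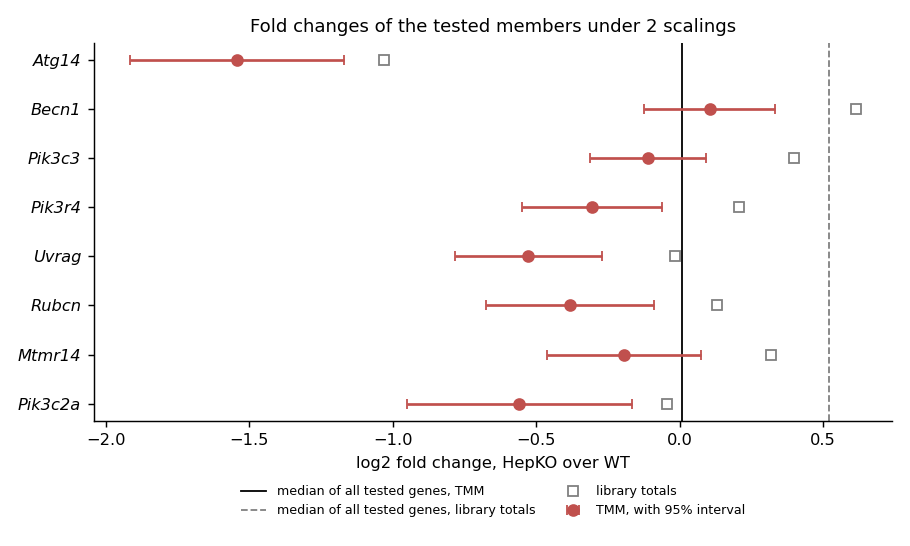
Log2 fold change, HepKO over WT, of the 8 tested genes with TMM scaling (filled points, bars are 95% intervals) and with library totals (open squares); vertical lines mark the median of all tested genes under each scaling, 0.01 and 0.52. Atg14 lies far to the left of both lines; with library totals Uvrag is at −0.02 and Rubcn, Pik3r4, Mtmr14 and Pik3c3 move from below 0 to above it.

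The balance between the autophagy and the endosomal subunit does not depend on library scaling when it is taken as a ratio within each library. The ratio of Uvrag to Atg14, in counts per kilobase of exon, was 1.02, 0.877 and 0.918 in WT and 2.12, 1.78 and 1.85 in HepKO. No HepKO ratio was as low as the highest WT ratio. Atg14 is the knocked-out gene, so its knockout enters this ratio by design. The mean shift was 1.03 on the log2 scale, or 2.04-fold. Its exact permutation p (2-sided) was 0.1, the smallest that 3 against 3 libraries can give, and 0.15 after Benjamini-Hochberg adjustment over the 6 ratios computed, so this test cannot take a ratio past 0.05 with 3 libraries a group.

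Set against the catalytic subunit, the ratio of Atg14 to Pik3c3 was 0.716, 0.722 and 0.696 in WT and 0.197, 0.303 and 0.295 in HepKO, a mean 2.73-fold lower with no overlap (exact permutation p = 0.1). The ratio of Uvrag to Pik3c3 was 0.732, 0.633 and 0.639 in WT and 0.418, 0.539 and 0.546 in HepKO, a mean 1.34-fold lower and also without overlap (exact permutation p = 0.1). Relative to Pik3c3 both defining subunits were thus lower in every HepKO library, with the wider margin in Atg14, the knocked-out gene. HepKO replicate 1 had the lowest ratio in both cases, and without it the Uvrag to Pik3c3 shift was −0.30 on the log2 scale in place of −0.42.

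The ratio of Becn1 to Pik3c3 was 1.28, 1.39 and 1.44 in WT and 1.46, 1.72 and 1.599 in HepKO, higher in every HepKO library by a mean 1.16-fold (exact permutation p = 0.1). The Pik3r4 to Pik3c3 ratio was 0.434, 0.384 and 0.413 in WT and 0.351, 0.321 and 0.404 in HepKO. Its groups overlapped (exact permutation p = 0.2, adjusted 0.24). The Rubcn to Uvrag ratio, which compares the brake with its complex, was 0.472, 0.567 and 0.616 in WT and 0.709, 0.624 and 0.505 in HepKO, again with overlap (exact permutation p = 0.4).

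**Figure D3:**
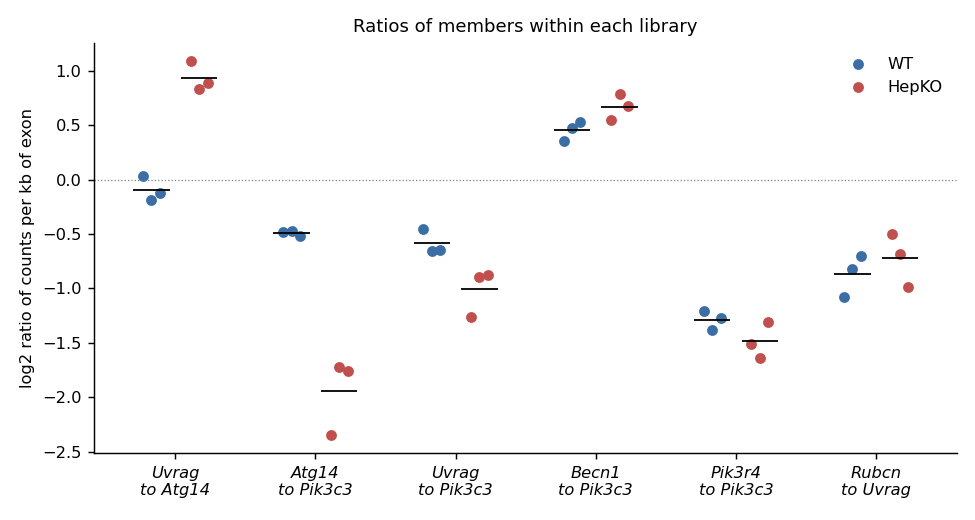
Log2 ratio of counts per kilobase of exon for 6 pairs of members within each library; points are libraries and horizontal lines are means of 3. The Uvrag to Atg14 ratio sits near 0 in WT (mean −0.09) and near 1 in HepKO (mean 0.93), and the last 2 pairs overlap between groups.

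Per kilobase of merged exons, Becn1 was the highest member in WT at 9.55 ± 0.77 CPM per kb (SD, n = 3), above Pik3c3 at 6.96 ± 0.17, Pik3c2a at 6.36 ± 0.59 and Mtmr14 at 5.69 ± 0.36. Atg14 (4.95 ± 0.16) and Uvrag (4.64 ± 0.27) came next, then Pik3r4 (2.85 ± 0.11) and Rubcn (2.55 ± 0.21). Neighbours in this order that overlapped between libraries were Pik3c3 and Pik3c2a, Pik3c2a and Mtmr14, Atg14 and Uvrag, and Pik3r4 and Rubcn. In HepKO, Atg14 was the lowest of the 8 tested members at 1.70 ± 0.34 CPM per kb, overlapping Rubcn at 1.95 ± 0.23, while Uvrag was at 3.22 ± 0.38. Levels between genes depend on the length used: over the longest transcript WT Uvrag was at 8.13 and Atg14 at 5.74 CPM per kb, and the WT log2 ratio of Uvrag to Atg14 was 0.50 in place of −0.09. The shift between groups is the same with either length.

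Nrbf2 encodes a regulatory partner of the Atg14 complex (minus strand of chromosome 10, 67266689 to 67285305). It had 1, 2 and 2 reads in WT and 0, 1 and 4 in HepKO, at or near the floor of 3 counts, so no fold is given. Such a count does not show that the transcript is absent, and the gene has near-identical copies. Of its 1859 words of 50 bases, 1224 (65.8%) also occur in other genes, chiefly Gm6740 or Gm6755. The rest occur in no other gene. For the other members at most 1.28% were shared on the same strand. Over 864 coding bases Nrbf2 and the copy Gm6740 (chromosome 14, 52860985 to 52862752) differ at 8 bases and are 99.1% identical. Coding bases 1 to 90 are printed from the GENCODE M21 transcripts to show how little separates a read of the gene from a read of the copy, with the only difference in capitals.
Nrbf2: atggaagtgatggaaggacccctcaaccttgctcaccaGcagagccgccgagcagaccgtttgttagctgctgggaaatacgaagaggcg
Gm6740: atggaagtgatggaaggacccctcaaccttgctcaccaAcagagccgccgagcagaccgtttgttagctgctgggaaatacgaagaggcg
Gm6740 had 6, 15 and 8 reads in WT and 8, 16 and 32 in HepKO, and Gm6755 had 0 in every library. Whether the copies account for the low Nrbf2 count was not tested.

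Mtmr14, a lipid phosphatase that removes the 3-phosphate from PI3P and so opposes the kinase (plus strand of chromosome 6, 113237843 to 113281392), was at 16.1, 16.9 and 18.3 CPM in WT and 13.6, 15.5 and 15.8 in HepKO. The groups did not overlap. The log2 fold change of −0.19 ± 0.12 (95% interval −0.46 to 0.07) did not pass the test (FDR 0.230), and with library totals it was 0.32 (FDR 0.0523).

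Pik3c2a encodes a class II PI3-kinase, which can also supply 3-phosphorylated lipids on endosomes (minus strand of chromosome 7, 116337265 to 116443449). It was at 78.4, 67.8 and 66.3 CPM in WT and 35.7, 58.3 and 50.2 in HepKO, without overlap and with the widest spread among the HepKO libraries of the tested members. It fell by 0.56 on the log2 scale (SE 0.17, 95% interval −0.95 to −0.17, FDR 0.0320). With library totals the log2 fold change was −0.05 (FDR 0.838). The call was also lost without WT replicate 1 (FDR 0.102), WT replicate 2 (0.0706), WT replicate 3 (0.0691) or HepKO replicate 3 (0.0666). Without HepKO replicate 1 the value was −0.39 and the call held (0.0331).

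In TMM-scaled CPM, the HepKO libraries lay wholly below the WT libraries for 7 of the 8 tested members, and overlapped for Becn1. Of all tested genes 53.5% had no overlap, with 26.4% wholly below and 27.1% wholly above. In library-total CPM 63.7% of all tested genes had no overlap. Atg14 alone of the 8 was then wholly below, against 8.02% of all tested genes, and Becn1, Pik3c3, Pik3r4 and Mtmr14 were wholly above, against 55.6%.

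Around the complexes, 7 lists of genes were read from the same fit. They cover regulators, effectors and trafficking partners of class III PI3-kinase, myotubularins, and subunits of the other PI3-kinase classes. Together they held 70 genes, of which 68 were tested, 20 fell, 9 rose and 39 did not pass (all tested genes: 18.8% fell and 19.4% rose). Their median log2 fold change was −0.10. With library totals 4 fell and 40 rose, with a median of 0.41 (all tested genes: 5.76% fell and 46.3% rose, median 0.52).

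The ULK1 kinase complex acts upstream of the Atg14 complex when autophagy starts. Of its 5 genes 3 fell (all tested genes: 18.8%), with a list median of −0.51. These were Rb1cc1 (the scaffold FIP200; −0.53 ± 0.10, FDR 0.0048), Atg101 (−0.57 ± 0.13, FDR 0.010) and Ulk2 (−0.51 ± 0.15, FDR 0.028). With library totals all 3 were between −0.06 and 0.00 and were not called. The Ulk2 call was also lost without WT replicate 3 (−0.35, FDR 0.115) or HepKO replicate 1 (−0.40, FDR 0.0591).

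Among 9 tested regulators of Beclin 1 and the complexes (median 0.21), 3 rose and 2 fell, beside 19.4% and 18.8% of all tested genes. Bcl2, which binds Beclin 1 and holds it away from the kinase, rose from 1.35, 3.54 and 1.64 CPM in WT to 7.40, 8.11 and 6.22 in HepKO (log2 fold change 1.73 ± 0.36, FDR 0.0059). Every HepKO library was above every WT library. The deubiquitinase Usp10 fell by 0.50 (SE 0.11, FDR 0.0074) and Ambra1, an activator of Beclin 1, fell by 0.48 (SE 0.11, FDR 0.0078). With library totals Usp10 was at 0.01 and Ambra1 at 0.03. Bcl2 is also expressed in leukocytes, and the part in its rise of the macrophage, T cell, neutrophil and Kupffer cell signals given above was not tested.

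Of 15 effectors that bind PI3P (median 0.00), 5 fell and 1 rose, beside 18.8% and 19.4% of all tested genes. The largest of these falls was in Zfyve9 (SARA, an endosomal adaptor), by 1.004 (SE 0.11, FDR 0.00034), from 39.1, 44.7 and 49.4 CPM in WT to 20.8, 23.2 and 22.5 in HepKO. Wdr45b and Wipi2, which read PI3P on forming autophagosomes, fell by 0.76 (SE 0.17, FDR 0.0074) and 0.42 (SE 0.10, FDR 0.013). With library totals Wdr45b was at −0.25 and not called, and Wipi2 was at 0.10. The Wipi2 call was lost without WT replicate 3 (−0.35, FDR 0.0586).

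The complex that turns PI3P into its 3,5-bisphosphate form showed unequal changes. The scaffold Vac14 fell by 1.09 (SE 0.14, FDR 0.00073), from 23.5, 31.5 and 33.5 CPM in WT to 14.7, 13.2 and 13.7 in HepKO. The phosphatase Fig4 fell by 0.73 (SE 0.12, FDR 0.0020), and with library totals it was at −0.22 and not called. The kinase Pikfyve itself was at −0.11 ± 0.13 (FDR 0.560), with overlapping groups. With library totals it was called higher (0.40, FDR 0.0397) and the groups did not overlap.

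Of 13 other myotubularins, the family of phosphatases and inactive relatives to which Mtmr14 belongs, 3 fell and 1 rose (median −0.16). Among all tested genes 18.8% fell and 19.4% rose. Mtmr11, an inactive member, rose from 2.26, 1.98 and 0.673 CPM in WT to 19.5, 22.9 and 23.6 in HepKO, a log2 fold change of 3.75 ± 0.38 (FDR 0.00041) and the largest among the genes of the 7 lists. Mtmr4 fell by 0.71 (SE 0.09, FDR 0.00078) and Mtmr10 by 0.38 (SE 0.08, FDR 0.0081). With library totals Mtmr4 was at −0.20 and Mtmr10 at 0.13, neither called. The Mtmr10 call was lost without WT replicate 2 (−0.33, FDR 0.0535).

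Of 10 tested subunits of the other PI3-kinase classes (median 0.04), 4 rose and 3 fell, beside 19.4% and 18.8% of all tested genes. Pik3cg, a catalytic subunit known mainly from leukocytes, rose from 0.439, 0.947 and 0.527 CPM to 3.24, 3.10 and 3.18 (2.30 ± 0.36, FDR 0.0016). The other 3 that rose, named after their values were seen, were Pik3cd (2.38 ± 0.45, FDR 0.0054), also a leukocyte subunit, and Pik3r5 and Pik3r6 (1.48 and 1.11), the regulatory partners of Pik3cg. They rose in the same libraries as the leukocyte markers given above, and the part of such cells was not tested. Pik3c2g, a class II relative of Pik3c2a known from liver, fell by 1.38 (SE 0.23, FDR 0.0020), and Pik3cb fell by 0.70 (SE 0.11, FDR 0.0014). With library totals Pik3cb was at −0.19 and not called.

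Of 13 tethering and fusion partners on endosomes and autophagosomes, 2 fell and 11 did not pass (median −0.02). Among all tested genes 18.8% fell. Stx17, the SNARE protein that joins autophagosomes to lysosomes, fell by 1.02 (SE 0.13, FDR 0.00055), from 43.7, 42.8 and 41.3 CPM to 18.9, 24.9 and 19.0. Its partner Snap29 was at 0.26 ± 0.10 and not called (FDR 0.0744). Snap29 was called higher with library totals (0.78, FDR 0.00050), with a filter of 1 CPM (0.29, FDR 0.0496) and without WT replicate 1 (0.34, FDR 0.0462). Rab5b, an early endosome GTPase, fell by 0.54 (SE 0.09, FDR 0.0026), and with library totals it was at −0.03 and not called. Stx17, Zfyve9, Vac14 and Pik3c2g were the 4 genes of the lists that also fell with library totals.

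**Figure D4:**
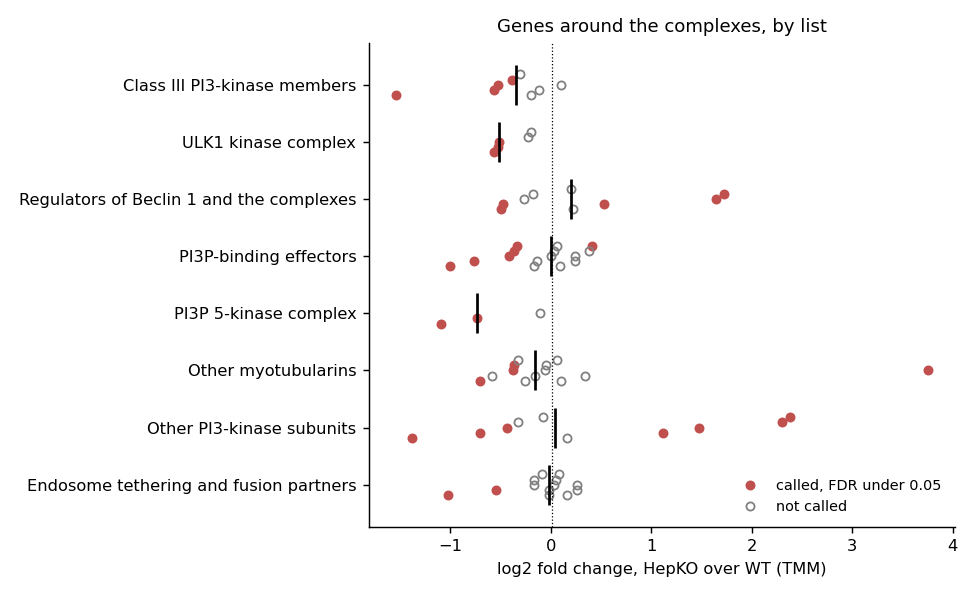
Log2 fold change, HepKO over WT with TMM scaling, of each tested gene in the member set and 7 lists around it; filled points passed the test, open points did not, thick bars are list medians and the dotted line is the median of all tested genes, 0.01. Atg14 (−1.54) is the leftmost point of the member set and Mtmr11 (3.75) the rightmost point of all; with library totals the median of all tested genes is 0.52 in place of 0.01, and 40 genes of the 7 lists rose in place of 9.

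The nearest protein-coding genes on either side of Atg14 on chromosome 14 did not pass the test under TMM. Fbxo34, 8931 bases away, was at −0.08 ± 0.11 (FDR 0.590), and Ktn1, 77799 bases away on the other side, at −0.01 ± 0.10 (FDR 0.939). Farther out, Peli2 (550174 bases) fell by 1.12 (SE 0.12, FDR 0.00033). Dlgap5 (122486 bases), a gene of the mitotic spindle, rose by 3.53 (SE 0.80, FDR 0.010), from a mean of 0.256 to 3.06 CPM. With library totals Fbxo34 (0.43, FDR 0.0107) and Ktn1 (0.50, FDR 0.0055) were called higher, at values below the median gene's 0.52, and Peli2 was at −0.60. With each library left out in turn the Dlgap5 log2 fold change was 2.98 to 4.18 (FDR at most 0.0445). The value of 4.18 was that without WT replicate 2 (FDR 0.0189).

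The 5 genes of at least 5 CPM whose profile over the 6 libraries was most like that of Atg14 were Cyp2j5, Arsa, Cps1, Pank1 and Gys2. Likeness was the root-mean-square difference in log2 CPM centred on the WT mean, which was 0.0832 for Cyp2j5, 0.110 for Arsa, 0.125 for Cps1, 0.129 for Pank1 and 0.136 for Gys2. They encode a cytochrome P450, a lysosomal sulphatase, the entry enzyme of the urea cycle, a pantothenate kinase and liver glycogen synthase. Their log2 fold changes were −1.47, −1.38, −1.49, −1.62 and −1.50, and Cps1 is among the hepatocyte markers above. They were chosen for this likeness, so their falls add no test of their own.

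**Figure D5:**
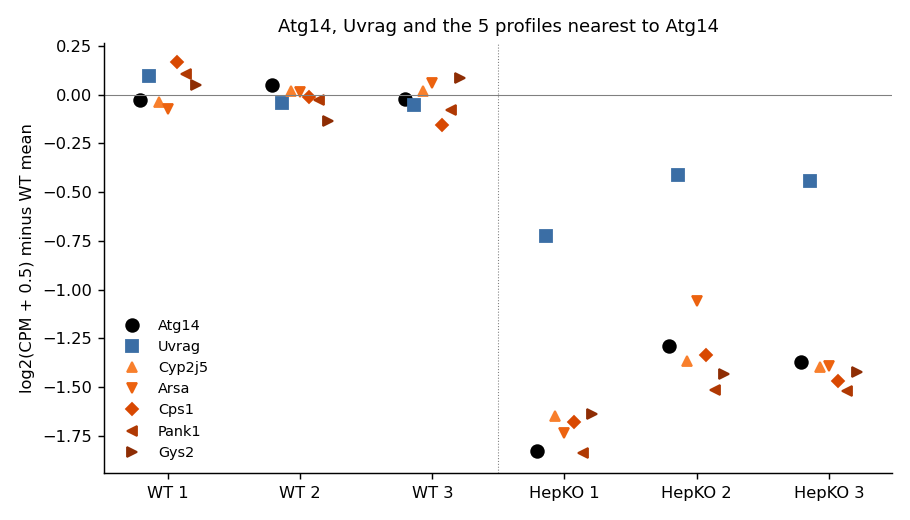
Log2(CPM + 0.5) minus its WT mean in each library for Atg14, Uvrag and the 5 genes whose profiles were nearest to that of Atg14. In the HepKO libraries Atg14 lies among the 5 genes, whose log2 fold changes were −1.38 to −1.62, and Uvrag lies above them.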

How the data were processed

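PolyA RNA of 6 mouse liver samples was measured; per the labels' protocols a column kit and a stranded mRNA kit were used. The deposited values are unnormalized counts of reads for each gene, as the authors counted them. Tools named, per the submitters' processing notes, were bcl2fastq, STAR 2.7.11a, featureCounts, Subread 2.0.0 and edgeR 3.40.2, with build mm10; roles and settings are not listed. The sources used here do not give the annotation release or the strand setting. IDs were matched without version to GENCODE M21 (GRCm38, the mm10 assembly), which held 55480 of 56350.

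Genes were filtered with filterByExpr, scaled by TMM and tested with the quasi-likelihood test of edgeR 4.0.16 (R 4.3.3), 2-sided, with Benjamini-Hochberg adjustment over all 16051 tested genes. Of these 38.2% were called at an FDR under 0.05. SE is the log2 fold change over the square root of F. Libraries of the same group differed beyond counting noise (a chi-square of 26.6 to 131 per degree of freedom), so each was counted as a sample. The script was tested on simulated data with a fixed spread that was not fitted to these libraries. Few genes were changed there, up or down at random, and the difference in TMM factors between the groups was not simulated. The rates that follow therefore do not cover errors of scaling. The script recovered 38.6% of 1.5-fold, 95.2% of 2-fold and 100% of 4-fold changes, and 10 of 164 calls were false. A gene that did not pass may thus still differ by a small fold. Ratios used counts per kb of merged exons with exact permutation tests. Motif matches and word sharing are exact string matches.

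The members and lists were chosen with earlier results of these data known. Genes named were the 9 members, the 2 protein-coding neighbours of Atg14 on each side, the 3 tested genes of each list with the smallest p and the 5 nearest profiles. Predicted genes, Rik clones and pseudogenes were left out of the profiles. Alternatives were DESeq2 1.42.0, limma-voom (limma 3.58.1), median-of-ratios factors, library totals, TMM computed after removal of the 20 most abundant genes, a filter of 1 CPM in 3 libraries, no filter, an FDR of 0.01, each library left out and a replicate block. For ratios they were the longest transcript, 1 added to each count, each library left out and the block.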

Additional observations from a re-analysis of the deposited data

How the results depend on the processing

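Atg14 was called lower under every alternative run, with log2 fold changes of −1.66 to −1.39 when each library was left out. Uvrag was called in all of these leave-outs (−0.59 to −0.44), and under every other alternative except library totals. The count of members that fell was 4. It was 1 with library totals, 2 at an FDR under 0.01, 2 to 4 with each library left out, and 2 with the replicate block. With median-of-ratios factors, DESeq2 or a filter of 1 CPM it was 3. Members that rose were 0, and 2 with library totals. Genes of the 7 lists that fell were 20, and 4 with library totals, 14 at an FDR under 0.01 and 16 to 18 with each library left out. Those that rose were 9, and 40 with library totals and 4 at an FDR under 0.01. They were 5 to 8 with each library left out (5 without HepKO replicate 3), 7 with the replicate block and 11 with a filter of 1 CPM. Library totals turned the log2 fold change to above 0 for Pik3c3 (0.40), Pik3r4 (0.21), Rubcn (0.13), Mtmr14 (0.32), Usp10 (0.0134), Ambra1 (0.0326), Wipi2 (0.10), Pikfyve (0.40), Mtmr10 (0.13), Fbxo34 (0.43) and Ktn1 (0.50), and over all genes gave 924 lower and 7429 higher, against 3020 and 3118. At an FDR under 0.01 these were 1758 and 1785. Uncalled values near 0 also changed sign: Pikfyve without WT replicate 2 (0.0273; −0.20 to 0.0273 over the leave-outs), and Ktn1 with median-of-ratios factors (0.0014), a 1 CPM filter (0.0141), DESeq2 (0.0013) and without WT replicate 1 (0.0300), WT replicate 2 (0.0330) or HepKO replicate 1 (0.0369; −0.0840 to 0.0369 over the leave-outs). The causes of these changes were not tested.

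Same-numbered libraries did not deviate together (correlations of −0.139, −0.109 and 0.03), so the numbers were not taken as pairs. With the replicate block Atg14 was at −1.56 (FDR 0.0021), Uvrag at −0.53 (0.0252), Pik3c2a at −0.58 (0.0686), Rubcn at −0.39 (0.0851) and Dlgap5 at 3.54 (0.0596). The Uvrag to Atg14 shift was 1.03 with the block (exact paired permutation p = 0.25, the smallest 3 pairs allow). No ratio changed direction under any alternative run for it. Nrbf2 had at most 4 reads in a library, too few for a test.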
